A study of Mus musculus with 12 samples.

Results

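The genes described here are 36 mouse genes of autophagy and of LC3-associated phagocytosis, taken by name from the 55604 genes counted. All 36 were found by matching identifiers without their version to gene symbols. A low-count filter passed 35 of them, and Atg2a, with 3 counts over all 12 libraries, was not tested. RNA came from C57BL/6 macrophages that had been differentiated from bone marrow in M-CSF (20 ng/ml) until day 7. The first group was macrophages alone, the second received control B16-F10 corpses and the third STC1OE B16-F10 corpses, with 4 libraries in each. B16-F10 is a mouse melanoma line derived from C57BL/6, and STC1OE stands for overexpression of stanniocalcin 1, a glycoprotein that cells can secrete. The dose was 5 corpses for each macrophage, the co-culture lasted 20 h, and unbound corpses were washed off before RNA extraction. How the corpses were made, and whether the STC1OE line is 1 clone, are not given in the sources used here. The series' design text calls the 4 libraries of a condition independent experiments.

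Autophagy encloses cytoplasm in a double membrane and delivers it to lysosomes. The ULK kinase complex starts it, a class III PI3-kinase complex holding Beclin 1 and ATG14 marks the membrane with PI3P, and ubiquitin-like conjugation attaches LC3 and GABARAP proteins to the membrane, where cargo receptors bind them. In LC3-associated phagocytosis, which macrophages use on engulfed dying cells, the same conjugation machinery puts LC3 on the single membrane of the phagosome. That route does without the ULK complex and ATG14 and uses a PI3-kinase complex with UVRAG and Rubicon and superoxide from the phagocyte NADPH oxidase.

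Promoter sequences are shown for 3 members, 1 that holds an E-box and 2 that rose in all comparisons below, with searched letters in capitals. They are from RefSeq (GRCm38.p6), each the 250 bases before the start site, 5′ to 3′ on the strand of the gene.
Atg5, chr10:44268089-44268338, plus strand: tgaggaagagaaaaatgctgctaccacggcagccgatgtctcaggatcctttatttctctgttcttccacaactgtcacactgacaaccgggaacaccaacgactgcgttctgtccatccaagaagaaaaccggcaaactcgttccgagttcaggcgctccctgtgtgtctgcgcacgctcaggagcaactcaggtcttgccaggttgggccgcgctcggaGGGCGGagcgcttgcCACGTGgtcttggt
Optn, chr2:5064118-5064367, minus strand: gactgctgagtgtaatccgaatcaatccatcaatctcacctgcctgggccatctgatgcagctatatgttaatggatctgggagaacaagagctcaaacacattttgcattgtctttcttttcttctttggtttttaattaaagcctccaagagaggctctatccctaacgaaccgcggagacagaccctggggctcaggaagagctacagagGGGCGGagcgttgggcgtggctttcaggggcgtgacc
Cyba, chr8:122432941-122433190, minus strand: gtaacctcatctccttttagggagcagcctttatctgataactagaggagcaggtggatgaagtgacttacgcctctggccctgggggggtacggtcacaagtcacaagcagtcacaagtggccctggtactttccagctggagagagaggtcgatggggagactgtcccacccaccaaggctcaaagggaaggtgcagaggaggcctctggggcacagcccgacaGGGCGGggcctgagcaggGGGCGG
The capitals mark CACGTG, the E-box read by TFEB, MITF and related factors, and GGGCGG, the GC box, here on either strand. Also searched on both strands were TGACNNNGC, the core of the antioxidant response element, and GTAAACA, a forkhead box O motif. Windows of 300 bases (the 250 before the start and 50 after) were held for 29 members, 32 windows in all, and not for Rb1cc1, Becn1, Pik3c3, Ncf4, Atg12, Atg16l1 and Map1lc3a. CACGTG was in 5 of the 32 windows (15.6%, against 7.15% of all 32851 windows), and 4 of these, of Atg3, Atg5, Atg7 and Rubcn, hold it before the start. GGGCGG was in 21 (65.6% against 35.7%), TGACNNNGC in 4 (12.5% against 12.4%) and GTAAACA in 0 (against 3.65%). In the 4 windows of the members that rose in all 3 comparisons, Cyba, Gabarap, Sqstm1 and Optn, CACGTG, TGACNNNGC and GTAAACA had no match and GGGCGG was in 3. Of the 7 windows of members that fell with both kinds of corpse, GGGCGG was in 5 (71.4%), CACGTG in 1, TGACNNNGC in 1 and GTAAACA in 0. In no member window did matches to different motifs overlap. These are matches of letters only.

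The libraries held 28488441 to 39981074 counts assigned to genes, so a count of 0 allowed up to 0.105 CPM in the shallowest and 0.075 CPM in the deepest, for counting error only. CPM is the read count of a gene relative to the library's total, scaled between libraries by TMM factors. All 8 macrophage markers were detected, and their sum was 15560 to 16440 CPM in macrophages alone, 13210 to 14890 CPM with control and 13090 to 14220 CPM with STC1OE corpses. Lyz2 made up most of it (11192 CPM in macrophages alone), and with either kind of corpse Cd68, Mertk and Fcgr1 rose while Adgre1, Csf1r, Itgam, Lyz2 and Cd14 fell. The 10 melanocyte markers summed to 2.16 to 2.57, 12.3 to 16.2 and 6.26 to 7.25 CPM, with 2 at 0 in macrophages alone, and 8 of the 8 tested were higher with control corpses. B cell markers summed to 14.4 to 15.8 CPM in macrophages alone and 4.35 to 5.32 CPM with corpses. The difference lay mostly in Ighm (12.5, 2.55 and 2.501 CPM in the 3 groups). Cd79b (2.11, 1.90 and 1.64 CPM) was called lower with STC1OE corpses only, and Cd79a was called in neither comparison. Fibroblast markers summed to 16.9 to 23.0, 11.8 to 15.95 and 13.0 to 14.5 CPM, with both tested, Col1a1 and Col1a2, lower in both comparisons. Dendritic cell markers summed to at most 2.28, mast cell markers to at most 1.04 and T and NK cell markers to at most 0.707 CPM. Libraries 1 and 2 of a group, and libraries 3 and 4, resembled each other more than libraries across these pairs in macrophages alone and with STC1OE corpses. The chi-square per degree of freedom was 2.81 to 4.26 within these pairs and 6.00 to 17.1 across. With control corpses libraries 3 and 4 were alike (2.73), while libraries 1 and 2 (7.03) differed as much as pairs across (5.46 to 9.11). No label gives a reason. Mouse Stc1 had 0, 2, 0 and 3 counts in macrophages alone, 3, 0, 2 and 0 with control corpses and 2, 3, 7 and 5 with STC1OE corpses. These counts check little, since the overexpression was in the corpses and no label names the species of the introduced sequence.

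Ulk1, Ulk2, Rb1cc1, Becn1, Pik3c3 and Atg14, of the ULK and class III PI3-kinase complexes, fell with both kinds of corpse. Atg13, Uvrag and Rubcn of the same complexes were called in neither comparison. Of the other roles, Cybb, Ncf4, Map1lc3a, Nbr1 and Calcoco1 also fell with both kinds of corpse. Gabarap, Sqstm1, Optn, Cyba, Atg5 and Atg7 rose with both, and all changes were below 2-fold. With control corpses 15 of the 35 tested members were lower than in macrophages alone and 6 were higher, by edgeR's quasi-likelihood test at an adjusted p below 0.05. That is 42.9% and 17.1% of the members, where 20.5% and 19.7% of all 16406 genes tested were lower and higher (40.1% in either direction). With STC1OE corpses 11 members were lower and 7 higher, which is 31.4% and 20% against 22.4% and 21.4% of all genes (43.8% in either direction). The median log2 fold change of the members was −0.090 with control and 0.0072 with STC1OE corpses, and that of all genes was −0.0010 and −0.027. The median absolute log2 fold change was smaller for the members (0.148 and 0.128) than for all genes (0.172 and 0.192). Between the corpse groups 5 members, 14.3%, were higher with STC1OE corpses and 0 were lower, where 3.33% of all genes were higher and 2.12% lower (5.44% in either direction). The median difference was 0.052 for the members and −0.0064 for all genes, and the median absolute difference 0.0585 and 0.0814. Calls also depend on how many reads a gene has, and members and all genes were not matched for level. Both comparisons with macrophages alone share those 4 libraries. The members were chosen with earlier results of these data known, so their shares are no independent test. With the melanocyte marker sums given above, the part of RNA from the corpses in the members' changes was not tested. In RNA from whole cultures, fewer cells of a type and less RNA per cell cannot be told apart. Log2 fold changes carry their standard error, means carry the SD with n = 4, and adjusted p-values here and below are from edgeR.

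**Figure D1:**
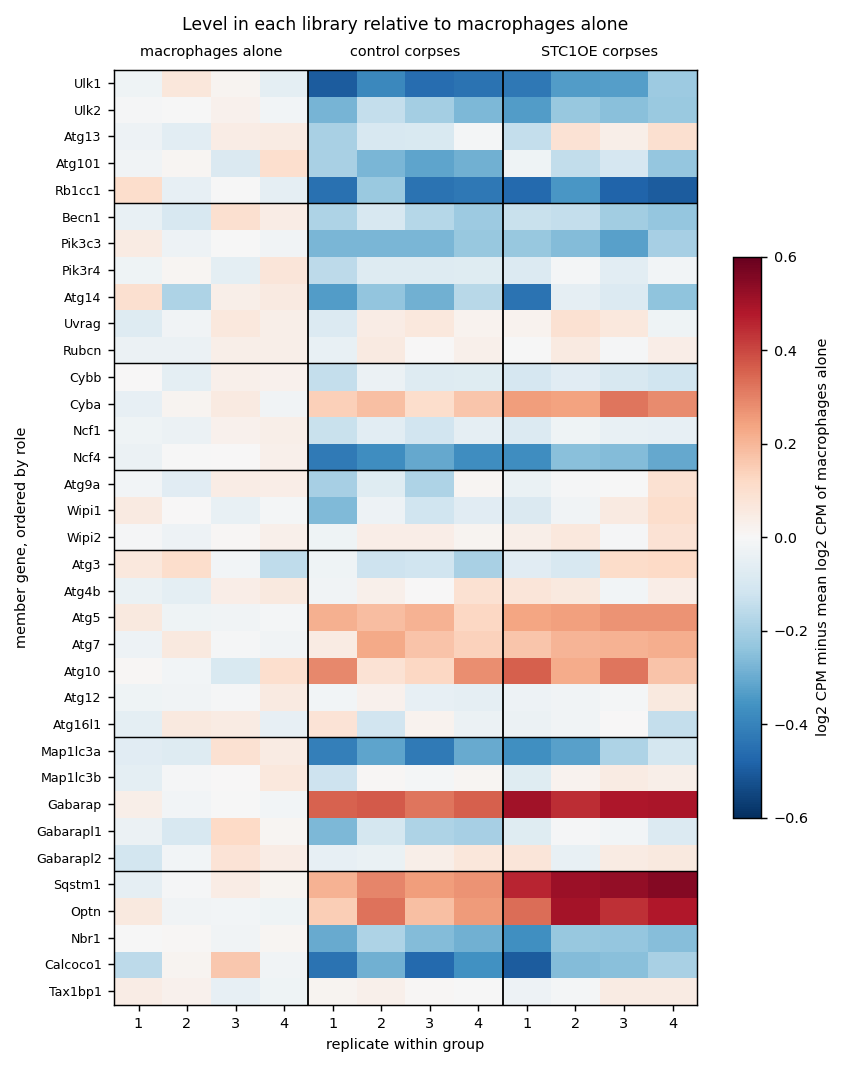
Each row is a tested member and each column a library, with the colour giving log2 CPM minus the mean log2 CPM of macrophages alone, and lines separating roles and groups. Gabarap, Sqstm1, Optn, Cyba and Atg5 are above 0 in all 8 corpse libraries, and Ulk1, Rb1cc1, Pik3c3 and Ncf4 are below 0 in all 8.

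**Figure D2:**
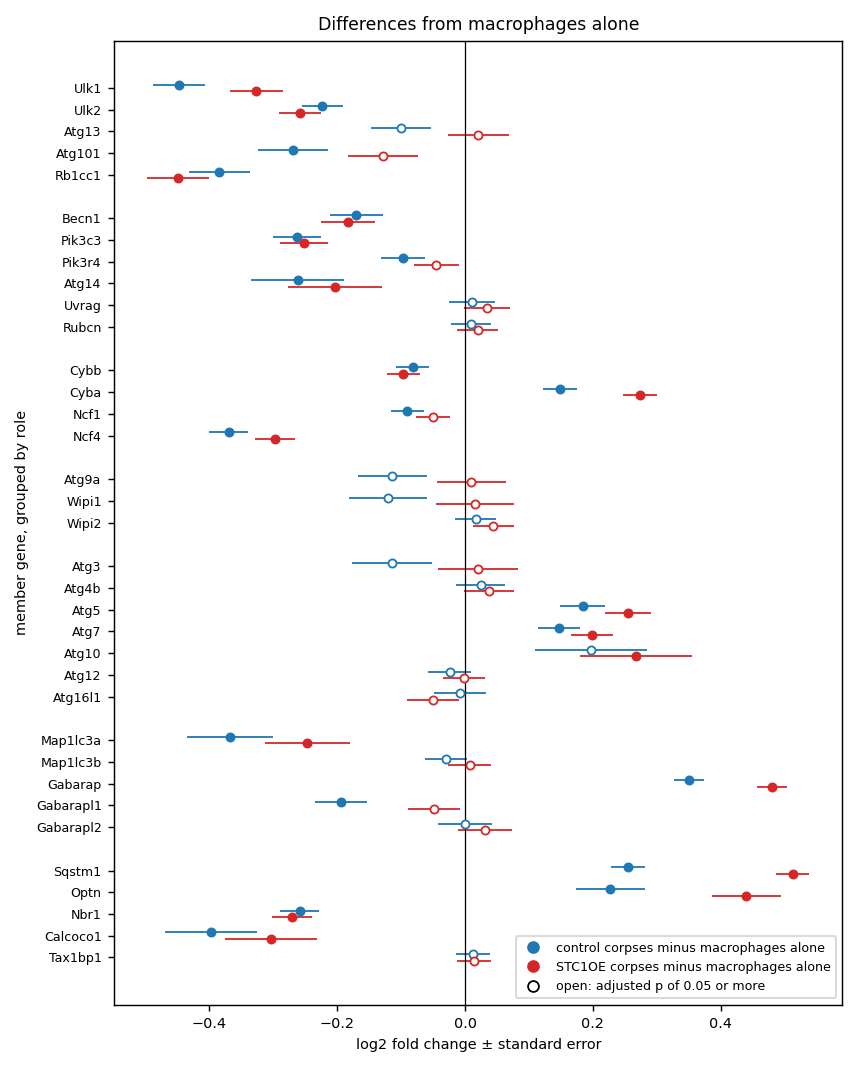
Log2 fold change with its standard error of the 35 tested members, for control corpses (blue) and STC1OE corpses (red) minus macrophages alone, grouped by role, with open symbols for members not called. The ULK complex lies at or left of 0 but for Atg13 with STC1OE corpses (0.021), and the largest values are those of Sqstm1 (0.51) and Gabarap (0.48) with STC1OE corpses.

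Of the 5 ULK complex genes, 4 fell with control corpses (80%) and 3 with STC1OE corpses (60%), and none rose. Of all genes 20.5% and 22.4% were lower. Ulk1, the kinase of the complex (chromosome 5, 110784488 to 110810097), stood at 48.9, 52.3, 50.4 and 47.9 CPM in macrophages alone, 35.3, 38.1, 36.3 and 36.7 CPM with control corpses and 37.0, 39.5, 39.6 and 42.9 CPM with STC1OE corpses. Every corpse library was below every library of macrophages alone, and the corpse groups overlapped. The log2 fold change was −0.45 ± 0.041 (adjusted p = 1.49e-10) with control and −0.33 ± 0.041 (adjusted p = 7.62e-08) with STC1OE corpses. Rb1cc1, the scaffold FIP200 (chromosome 1, 6206197 to 6276648), stood at 57.6, 51.8, 53.5 and 51.7 CPM in macrophages alone, 39.3, 45.9, 39.4 and 39.8 CPM with control corpses and 38.7, 42.1, 38.4 and 37.9 CPM with STC1OE corpses. It was lower in all 8 corpse libraries, although replicate 2 was higher than the rest of its group with either kind of corpse, and the changes were −0.38 ± 0.048 (adjusted p = 4.96e-07) and −0.45 ± 0.048 (adjusted p = 4.81e-08). Atg101, which stabilises ATG13 (chromosome 15, 101284272 to 101290945), stood at 17.2, 17.6, 16.5 and 18.7 CPM in macrophages alone, 15.2, 14.4, 14.0 and 14.3 CPM with control corpses and 17.2, 15.8, 16.3 and 14.9 CPM with STC1OE corpses. Its 4 control corpse libraries lay below macrophages alone (−0.27 ± 0.055, adjusted p = 0.000162), while the STC1OE libraries overlapped them (−0.13 ± 0.055, adjusted p = 0.0591). Ulk2, the paralog of Ulk1, had means of 89.8 ± 1.07, 77.01 ± 3.36 and 75.1 ± 2.76 CPM in macrophages alone, with control and with STC1OE corpses, and fell in both comparisons (−0.22 ± 0.032 and −0.26 ± 0.033). Atg13, the regulatory subunit, had 52.7 ± 2.07, 49.3 ± 2.51 and 53.6 ± 4.00 CPM and was called in neither (−0.10 ± 0.047 and 0.021 ± 0.047).

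Among the PI3-kinase genes Pik3c3, Becn1 and the autophagy-specific Atg14 fell with both kinds of corpse, and Pik3r4 with control corpses only. The log2 fold changes of Uvrag and Rubcn, of the complex used in LC3-associated phagocytosis, were at most 0.034. Pik3c3, Becn1 and Pik3r4 encode subunits of both complexes, so their falls cannot be assigned to 1 route. Of 6 genes, 4 fell with control corpses (66.7%), 3 with STC1OE corpses (50%), and none rose, where 20.5% and 22.4% of all genes were lower. Pik3c3, the lipid kinase VPS34, stood at 38.9, 36.8, 37.5 and 37.0 CPM in macrophages alone, 31.04, 31.01, 30.99 and 32.1 CPM with control corpses and 32.0, 31.4, 29.9 and 32.7 CPM with STC1OE corpses. All 8 corpse libraries were below macrophages alone, with changes of −0.26 ± 0.037 (adjusted p = 8.94e-07) and −0.25 ± 0.038 (adjusted p = 1.88e-06). Becn1, the scaffold Beclin 1 (chromosome 11, 101285952 to 101302286), stood at 37.1, 35.8, 40.8 and 39.4 CPM in macrophages alone, 33.7, 35.8, 34.0 and 32.9 CPM with control corpses and 34.8, 34.6, 33.1 and 32.6 CPM with STC1OE corpses. Control corpse replicate 2 overlapped macrophages alone by a small margin and the STC1OE libraries did not, and the changes were −0.17 ± 0.042 (adjusted p = 0.0013) and −0.18 ± 0.042 (adjusted p = 0.000642). Of Becn1's annotated exon bases 43.9% are shared with Cntd1 on the other strand, so its counts are less certain. Atg14, which directs the kinase to autophagosome formation (chromosome 14, 47540893 to 47570649), stood at 17.4, 14.3, 16.7 and 16.9 CPM in macrophages alone, 12.9, 13.8, 13.3 and 14.5 CPM with control corpses and 11.97, 15.7, 15.4 and 13.8 CPM with STC1OE corpses. Both corpse groups overlapped macrophages alone, where replicate 2 was the lowest of its group, and the changes were −0.26 ± 0.073 (adjusted p = 0.00547) and −0.20 ± 0.073 (adjusted p = 0.0276). The second call was lost without any 1 of 5 libraries, replicates 1, 3 and 4 of macrophages alone and replicates 1 and 4 with STC1OE corpses. Pik3r4, the regulatory subunit VPS15, had 52.8 ± 2.08, 49.4 ± 1.39 and 51.2 ± 1.24 CPM and fell by 0.097 ± 0.035 (adjusted p = 0.0263) with control corpses, a call lost without any 1 of 8 libraries (all but replicates 1 and 3 of macrophages alone, 4 of the control group and 4 of the STC1OE group).

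Rubcn encodes Rubicon, which is needed for LC3-associated phagocytosis and restrains canonical autophagy (chromosome 16, 32821703 to 32877766). It stood at 64.4, 64.3, 67.6 and 67.6 CPM in macrophages alone, 64.0, 68.6, 66.0 and 67.4 CPM with control corpses and 65.8, 68.5, 65.6 and 67.8 CPM with STC1OE corpses. The 3 groups overlapped throughout, with differences of 0.0096 ± 0.032 and 0.020 ± 0.032 (adjusted p = 0.847 and 0.658). Uvrag, its partner in that complex, had 66.8 ± 2.92, 67.4 ± 2.99 and 68.5 ± 2.39 CPM and differences of 0.011 ± 0.036 and 0.034 ± 0.036, likewise not called, and shares 17.6% of its exon bases with an antisense transcript.

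The oxidase genes went different ways: Cyba rose and Ncf4 and Cybb fell with both kinds of corpse. Cyba, the smaller subunit of the membrane-bound cytochrome (chromosome 8, 122424776 to 122432930), stood at 543, 569, 585 and 555 CPM in macrophages alone, 620.3, 638, 605 and 631 CPM with control corpses and 669, 664, 702 and 685 CPM with STC1OE corpses. The groups were separate and in that order, and the changes were 0.15 ± 0.026 (adjusted p = 2.69e-05) and 0.27 ± 0.026 (adjusted p = 3.83e-10). Cybb, the catalytic subunit (chromosome X, 9435252 to 9487771), stood at 718, 688, 730.0 and 729 CPM in macrophages alone, 648, 699.5, 678 and 682 CPM with control corpses and 667, 683, 669.7 and 659 CPM with STC1OE corpses. Its fall was small, at −0.082 ± 0.026 (adjusted p = 0.0114) with control corpses, where control replicate 2 overlapped macrophages alone, and −0.097 ± 0.026 (adjusted p = 0.00277) with STC1OE corpses. The first call was lost without replicate 1 of macrophages alone or replicate 1 or 3 of the control group (highest adjusted p 0.0658). Ncf4, the cytosolic subunit that binds PI3P (chromosome 15, 78244801 to 78262580), stood at 106, 109, 109 and 111 CPM in macrophages alone, 81.1, 84.2, 87.9 and 84.1 CPM with control corpses and 84.1, 91.4, 91.0 and 88.0 CPM with STC1OE corpses. Every corpse library was below every library of macrophages alone, with changes of −0.37 ± 0.031 (adjusted p = 1.89e-11) and −0.30 ± 0.031 (adjusted p = 1.82e-09). Ncf1, the organiser subunit, had 170.1 ± 3.97, 159.9 ± 4.31 and 164 ± 2.54 CPM and fell by 0.090 ± 0.026 with control corpses (adjusted p = 0.00591), not called with STC1OE corpses (−0.050 ± 0.026) and lost in the first case without control replicate 3 (adjusted p = 0.0587, in a range of 0.00526 to 0.0587 over all libraries left out in turn). Neutrophils are rich in this oxidase. The 10 neutrophil markers summed to 178.3 to 186.4 CPM in macrophages alone, 91.9 to 97.2 CPM with control and 84.7 to 91.3 CPM with STC1OE corpses. Mmp8 alone made up most of each sum (166.7, 90.3 and 83.8 CPM in the 3 groups). All 5 markers tested were lower in both comparisons, and Ly6g was at 0 in all 12 libraries. The part of neutrophils in the fall of Ncf4, Ncf1 and Cybb was not tested. Of the exon bases of Ncf1 11.1% are shared with Gtf2ird2 on the other strand.

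**Figure D3:**
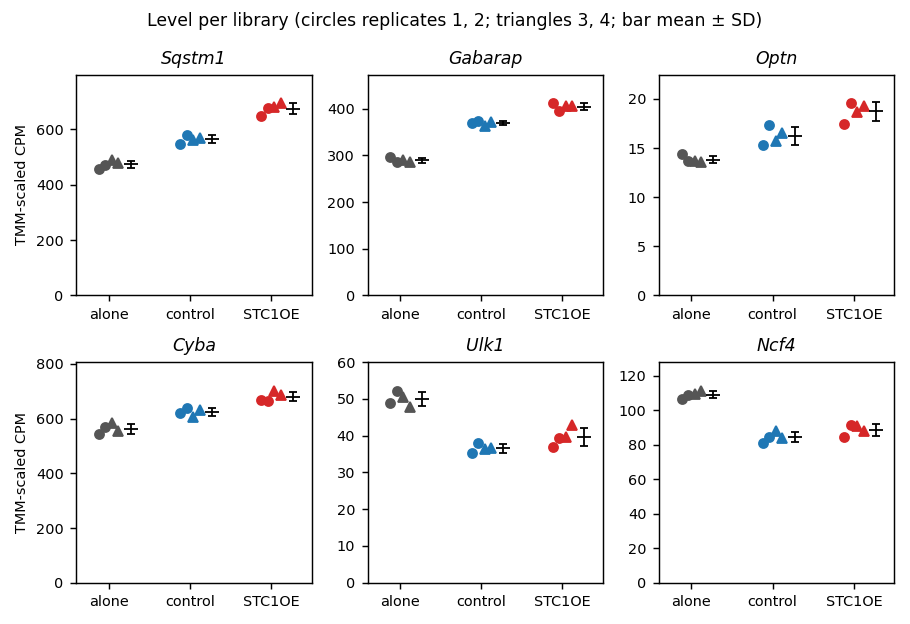
Level in TMM-scaled CPM (axis from 0) of 6 members in each library, with circles for replicates 1 and 2, triangles for replicates 3 and 4, and a bar for the mean ± SD of 4 libraries. Sqstm1, Gabarap, Optn and Cyba step up from macrophages alone to control to STC1OE corpses, with 675 ± 18.6 CPM of Sqstm1 in the last, while Ulk1 and Ncf4 are lower with either kind of corpse.

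Genes that supply membrane or read PI3P were not called in either comparison. Atg9a, the lipid scramblase on the vesicles that seed autophagosomes, had 17.0 ± 0.627, 15.7 ± 1.09 and 17.1 ± 0.668 CPM, a difference of −0.11 ± 0.054 with control corpses (adjusted p = 0.0947). Part of its exon sequence, 32.6%, is shared with neighbouring genes. Wipi1 and Wipi2 bind PI3P, and WIPI2 recruits ATG16L1. Wipi1 had 13.3 ± 0.382, 12.2 ± 0.857 and 13.4 ± 0.793 CPM (−0.12 ± 0.061, adjusted p = 0.119, with control corpses) and Wipi2 59.1 ± 1.08, 59.9 ± 1.30 and 61.0 ± 1.69 CPM (0.017 ± 0.032, adjusted p = 0.726). Atg2a encodes the lipid transfer protein that feeds the growing membrane. Its 3 counts came from 3 different libraries, with at most 1 count in each. Of the further pathway genes described below, Nrbf2, Calcoco2 and Epg5 had 0 counts in all 12 libraries. Whether such counts come from the gene models used in counting was not tested, so they are not given as low expression.

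Of the 7 conjugation genes, Atg5 and Atg7 rose with both kinds of corpse, Atg10 rose with STC1OE corpses, and none fell. That is 28.6% higher with control and 42.9% with STC1OE corpses. Of all genes 19.7% and 21.4% were higher (40.1% and 43.8% called in either direction). Atg5, which is joined to ATG12 to build the LC3 ligase (chromosome 10, 44268358 to 44364291, the gene whose promoter with its E-box is shown above), stood at 36.3, 34.2, 34.3 and 34.5 CPM in macrophages alone, 40.3, 39.6, 40.2 and 37.9 CPM with control corpses and 41.1, 41.2, 41.9 and 41.9 CPM with STC1OE corpses. All 8 corpse libraries were above macrophages alone, by 0.18 ± 0.036 (adjusted p = 8.96e-05) and 0.26 ± 0.036 (adjusted p = 5.82e-07). Atg7, the enzyme that activates ATG12 and LC3 (chromosome 6, 114643097 to 114860614), stood at 78.3, 83.0, 79.5 and 78.7 CPM in macrophages alone, 82.6, 93.5, 90.03 and 87.9 CPM with control corpses and 89.6, 91.9, 92.4 and 92.8 CPM with STC1OE corpses. Only control replicate 1 reached into the range of macrophages alone, and the changes were 0.15 ± 0.033 (adjusted p = 0.000461) and 0.20 ± 0.033 (adjusted p = 7.94e-06). Atg10, which transfers ATG12 to ATG5 (chromosome 13, 90935356 to 91223968), stood at 4.90, 4.83, 4.59 and 5.23 CPM in macrophages alone, 5.97, 5.19, 5.32 and 5.92 CPM with control corpses and 6.26, 5.71, 6.09 and 5.50 CPM with STC1OE corpses. It was the lowest tested member in CPM, and its change was 0.27 ± 0.088 (adjusted p = 0.0135) with STC1OE corpses and 0.20 ± 0.087 (adjusted p = 0.0728) with control corpses. The other 4 were called in neither comparison. Atg3, the enzyme that hands LC3 to lipid, had 50.1 ± 3.88, 46.2 ± 2.22 and 50.7 ± 4.03 CPM (−0.11 ± 0.062 and 0.020 ± 0.062). Atg12, the ubiquitin-like partner of ATG5, had 55.1 ± 1.47, 54.2 ± 1.35 and 55.0 ± 1.53 CPM, and Atg16l1, which places the ligase on membranes, 51.2 ± 2.19, 50.9 ± 2.90 and 49.5 ± 2.14 CPM. Atg4b, the protease that primes LC3 and releases it, had 36.4 ± 1.49, 37.1 ± 1.26 and 37.4 ± 0.982 CPM. Atg3 had opposite signs in the pairs of replicates: with STC1OE corpses against macrophages alone the change was −0.17 in replicates 1 and 2 and 0.20 in replicates 3 and 4, each past the threshold, and whether the pairs differ was not tested.

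Within the LC3 and GABARAP family Gabarap rose, Map1lc3a fell, and Map1lc3b and Gabarapl2 were called in neither comparison. Gabarap, which acts late in autophagosome formation and closure (chromosome 11, 69991143 to 69994951), stood at 297, 286, 289 and 286 CPM in macrophages alone, 370.0, 374, 362 and 371 CPM with control corpses and 411, 394, 405 and 406 CPM with STC1OE corpses. The groups were separate, and the changes were 0.35 ± 0.024 (adjusted p = 1.69e-13) and 0.48 ± 0.024 (adjusted p = 6.4e-17). Map1lc3a, an LC3 paralog (chromosome 2, 155276297 to 155278073), stood at 12.1, 11.98, 13.5 and 13.1 CPM in macrophages alone, 9.50, 10.1, 9.41 and 10.2 CPM with control corpses and 9.78, 10.1, 11.1 and 11.7 CPM with STC1OE corpses. Its corpse libraries were all below macrophages alone, with changes of −0.37 ± 0.067 (adjusted p = 3.61e-05) and −0.25 ± 0.067 (adjusted p = 0.00308). Map1lc3b, the LC3 form most used as a marker of autophagosomes (chromosome 8, 121590361 to 121598760), stood at 106, 109.8, 110.3 and 115 CPM in macrophages alone, 101, 111, 109 and 111 CPM with control corpses and 105, 112, 114 and 113 CPM with STC1OE corpses. Its groups overlapped, with differences of −0.030 ± 0.033 and 0.0072 ± 0.033 (adjusted p = 0.511 and 0.887). Gabarapl1, a paralog of Gabarap (chromosome 6, 129533160 to 129542346), stood at 51.3, 49.1, 57.0 and 52.9 CPM in macrophages alone, 43.6, 48.8, 46.1 and 45.7 CPM with control corpses and 49.8, 52.3, 51.9 and 49.6 CPM with STC1OE corpses. It fell with control corpses (−0.19 ± 0.041, adjusted p = 0.000256), whereas with STC1OE corpses the groups overlapped (−0.048 ± 0.041, adjusted p = 0.364), and 28.3% of its exon bases are shared with a transcript on the other strand, which makes its counts less certain. Gabarapl2 had 35.7 ± 2.03, 35.8 ± 1.41 and 36.6 ± 1.32 CPM.

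Per kb of exon, which allows levels to be compared between genes, Gabarap was the most abundant of this family. In macrophages alone it had 157 ± 2.72 CPM per kb, against 26.1 ± 1.66 for Gabarapl1, 15.4 ± 0.874 for Gabarapl2, 14.7 ± 0.508 for Map1lc3b and 10.7 ± 0.635 for Map1lc3a. The ranges of mean ± SD of Gabarapl2 and Map1lc3b overlapped, while Gabarap was far above all. Only Cyba at 542 ± 17.4 CPM per kb stood higher among the members, with Sqstm1 at 141 ± 3.93 and Cybb at 123 ± 3.36 following. With STC1OE corpses Gabarap reached 219 ± 3.92 and Sqstm1 201 ± 5.55 CPM per kb. Annotated exons that macrophages do not use lower such values.

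**Figure D4:**
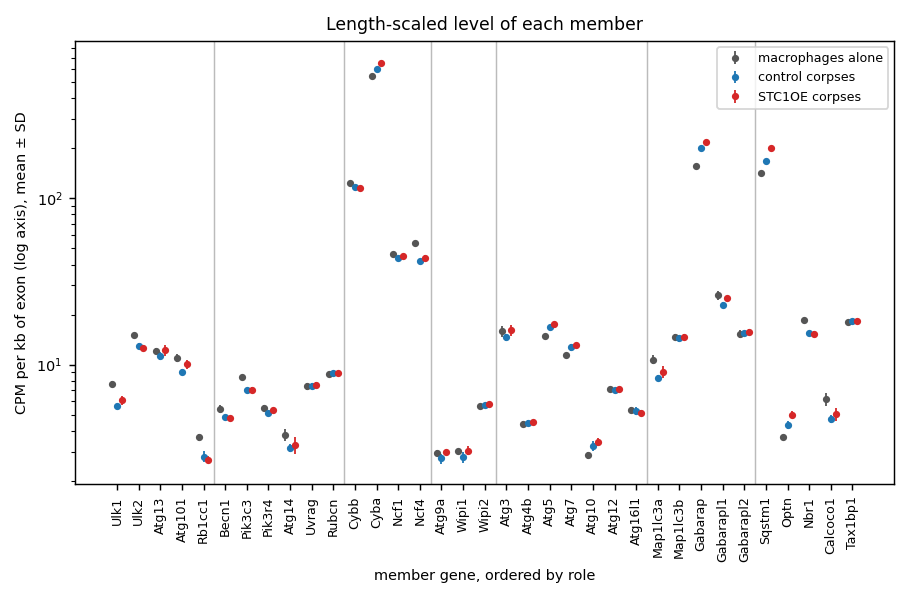
CPM per kb of annotated exon (log axis) of the 35 tested members, as mean ± SD of 4 libraries in each group. Cyba, Gabarap, Sqstm1 and Cybb stand above 100 in all groups, and the other members lie between 2.67 (Rb1cc1 with STC1OE corpses) and 53.9 (Ncf4 in macrophages alone).

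The cargo receptors split: Sqstm1 and Optn rose, Nbr1 and Calcoco1 fell, with both kinds of corpse. Sqstm1, the ubiquitin-binding receptor that is itself degraded by autophagy (chromosome 11, 50199366 to 50210827), stood at 456, 471, 488 and 478 CPM in macrophages alone, 547, 579.7, 563 and 569.6 CPM with control corpses and 649.5, 676, 681 and 694 CPM with STC1OE corpses. No library of 1 group reached into another, although 17.3% of its exon bases are shared with Mrnip on the other strand. The changes were 0.25 ± 0.026 (adjusted p = 1.95e-09) and 0.51 ± 0.026 (adjusted p = 1.7e-16). Optn, optineurin, a receptor for ubiquitin-coated bacteria and mitochondria (chromosome 2, 5020642 to 5064051), stood at 14.4, 13.6, 13.7 and 13.6 CPM in macrophages alone, 15.3, 17.3, 15.7 and 16.5 CPM with control corpses and 17.4, 19.6, 18.7 and 19.3 CPM with STC1OE corpses. It was separate between all groups too, with changes of 0.23 ± 0.054 (adjusted p = 0.000962) and 0.44 ± 0.054 (adjusted p = 5.01e-08). Calcoco1, a receptor for endoplasmic reticulum (chromosome 15, 102706777 to 102722178), stood at 31.8, 35.8, 39.6 and 35.0 CPM in macrophages alone, 26.1, 29.0, 25.6 and 27.5 CPM with control corpses and 25.1, 29.6, 29.8 and 30.998 CPM with STC1OE corpses. All 8 corpse libraries were below macrophages alone, and it fell by 0.40 ± 0.071 (adjusted p = 0.000389) and 0.30 ± 0.072 (adjusted p = 0.00312) on the log2 scale. Nbr1, a receptor that works with the Sqstm1 protein, had 127 ± 1.26, 106 ± 4.01 and 105 ± 4.72 CPM and fell in both comparisons (−0.26 ± 0.031, adjusted p = 3.76e-08, and −0.27 ± 0.031, adjusted p = 1.57e-08). Tax1bp1, a further ubiquitin-binding receptor, had 180.1 ± 5.52, 182 ± 1.84 and 182 ± 5.26 CPM and was called in neither (0.012 ± 0.027 and 0.014 ± 0.027).

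Tested against a change of 1.2-fold instead of any change, 4 of the 35 tested members remained in each comparison with macrophages alone. With control corpses these were Gabarap, higher, and Ulk1, Rb1cc1 and Ncf4, lower, where 4.49% of all genes were higher and 5.80% lower by this test. With STC1OE corpses they were Gabarap, Sqstm1 and Optn, higher, and Rb1cc1, lower, where 5.50% of all genes were higher and 7.41% lower.

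The corpse groups were also compared directly, which sets corpses of the STC1OE line against corpses of the control line, so STC1 overexpression and any other difference between these corpses cannot be told apart. A total of 5 members were higher with STC1OE than with control corpses: Sqstm1 (0.26 ± 0.026, adjusted p = 1.72e-07), Optn (0.21 ± 0.052, adjusted p = 0.0133), Gabarap (0.13 ± 0.024, adjusted p = 0.000746), Cyba (0.13 ± 0.026, adjusted p = 0.0036) and Gabarapl1 (0.15 ± 0.041, adjusted p = 0.0305). The libraries of the corpse groups did not overlap for any of these 5, nor for Atg5, which was not called (0.071 ± 0.035, adjusted p = 0.259). How many of all genes were separated in this way was not counted. Sqstm1, Optn, Gabarap and Cyba had also risen with control corpses, so their levels ran from macrophages alone over control to STC1OE corpses. Gabarapl1 had fallen with control corpses. Among the 30 members not called, the difference ranged from −0.064 for Rb1cc1 to 0.14 for Atg101. Rubcn differed by 0.010 ± 0.032, Map1lc3b by 0.037 ± 0.033, Cybb by −0.015 ± 0.026 and Ulk1 by 0.12 ± 0.042. None of the 5 passed the test against 1.2-fold. Melanocyte markers moved the other way between the corpse groups, with 6 of 8 tested lower with STC1OE corpses, and their part in these differences was not tested.

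These calls depended on the libraries. In replicates 1 and 2 of each group 1 member was called, Sqstm1, with 27 genes higher and 6 lower among all, and in replicates 3 and 4 there were 9 members, with 1298 genes higher and 627 lower. The differences of the 5 members kept their direction in both pairs: Sqstm1 had 0.24 and 0.28, Optn 0.19 and 0.24, Gabarap 0.12 and 0.15, Cyba 0.086 and 0.17, and Gabarapl1 0.15 and 0.14. Of the pairs, only replicates 3 and 4 called Atg3 (−0.0074 and 0.27), Calcoco1 (−0.0078 and 0.19), Ulk1 and Atg13. Whether the pairs differ was not tested. Sqstm1, Gabarap and Cyba stayed past the threshold whichever library was removed. With control replicate 1 or control replicate 3 removed, 3 members were called. Optn lost its call without control replicate 1 or 3, and Gabarapl1 without control replicate 1, 3 or 4 or STC1OE replicate 2 or 3.

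**Figure D5:**
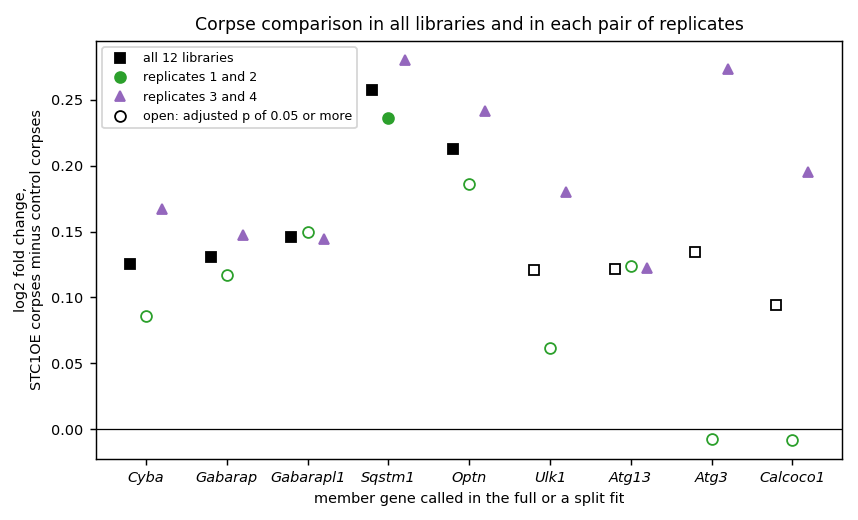
Log2 fold change of STC1OE minus control corpses for the 9 members called in the fit of all libraries or of replicates 3 and 4, in all 12 libraries (squares), in replicates 1 and 2 (circles) and in replicates 3 and 4 (triangles), with open symbols where the adjusted p was 0.05 or more. Sqstm1 is the member filled in all 3, and Atg3 and Calcoco1 lie near 0 in replicates 1 and 2.

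Outside the 36, a list of 61 further genes of the pathway held 57 that were tested. With control corpses 17 rose and 20 fell, with STC1OE corpses 26 rose and 20 fell, and between the corpse groups 7 were higher with STC1OE corpses and 0 lower. In either direction these are 64.9%, 80.7% and 12.3% of the list, where 40.1%, 43.8% and 5.44% of all genes were called. The list was chosen with earlier results of these data known, so these shares are no independent test. Of 5 partners of the oxidase, 4 fell (80%) and none rose with control corpses, and 3 fell (60%) and 1 rose (20%) with STC1OE corpses. Among all genes 20.5% fell and 19.7% rose with control corpses, and 22.4% fell and 21.4% rose with STC1OE corpses. Cybc1, the chaperone of the cytochrome, went from 69.8 ± 3.64 to 60.7 ± 1.09 and 64.2 ± 2.25 CPM, and Rap1a, a small GTPase, from 68.6 ± 0.954 to 63.1 ± 1.98 and 62.2 ± 2.56 CPM. Tecpr1, which can form its own complex with ATG5 and ATG12, rose from 166 ± 8.13 to 222 ± 18.0 and 246 ± 19.0 CPM (0.41 ± 0.072 and 0.56 ± 0.072). Atg4d, a protease related to Atg4b, rose with STC1OE corpses (0.14 ± 0.052) and had 0.014 ± 0.051 with control corpses, not called. Among 13 selective receptors and their helpers tested, 5 rose (38.5%) and 4 fell (30.8%) with control corpses. With STC1OE corpses 6 rose (46.2%) and 5 fell (38.5%). Pink1, a kinase of mitophagy, fell by 0.41 and 0.34 on the log2 scale. Bnip3, a mitophagy receptor induced by hypoxia, was at 6.18 ± 0.282, 5.66 ± 0.602 and 7.86 ± 0.625 CPM and higher with STC1OE than with control corpses (0.47 ± 0.085, adjusted p = 0.000857). Ccpg1, a receptor for endoplasmic reticulum, was low throughout, at 0.646 ± 0.208, 0.285 ± 0.0999 and 0.242 ± 0.098 CPM.

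Of 13 genes tested for fusion with the lysosome, 4 rose (30.8%) and 3 fell (23.1%) with control corpses, where 19.7% of all genes rose and 20.5% fell. With STC1OE corpses 8 rose (61.5%) and 3 fell (23.1%), where 21.4% and 22.4% of all genes did. Plekhm1, an adaptor between RAB7 and the tethering complex HOPS, rose from 272 ± 5.07 to 312 ± 11.9 and 335 ± 10.1 CPM (0.20 ± 0.028 and 0.30 ± 0.028), and was higher with STC1OE than with control corpses (0.10 ± 0.028, adjusted p = 0.0228). Vps33a, a HOPS subunit, rose by 0.17 ± 0.027 and 0.23 ± 0.027. Fyco1, which links autophagosomes to microtubule motors, fell by 0.14 and 0.23 on the log2 scale. The list drawn up for regulators of initiation and membrane supply did not separate genes that promote initiation from genes that restrain it. Of its 22 genes tested, 7 rose (31.8%) and 9 fell (40.9%) with control corpses. With STC1OE corpses 9 rose and 9 fell (40.9% each). Atg9b, the paralog of Atg9a, fell from 6.89 ± 0.497 to 4.37 ± 0.474 and 4.14 ± 0.429 CPM (−0.66 ± 0.096 and −0.73 ± 0.098). Wdr45, a PI3P-binding relative of the WIPI proteins, fell from 2.27 ± 0.194 to 1.33 ± 0.241 and 1.24 ± 0.363 CPM, and Prkaa2, a catalytic subunit of AMPK, rose from 0.522 ± 0.097 to 0.998 ± 0.112 and 0.950 ± 0.236 CPM.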

How the data were processed

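RNA was sequenced from 12 libraries, 4 in each of 3 groups, with groups and replicate numbers from the sample titles. The values are raw counts of reads per gene as the authors deposited them. The submitters' processing notes name HISAT2, HTSeq and DESeq2 and the builds mm10 and GRCm38, with no versions. The annotation release and the use of strand are not given in the sources used here, and reads of genes that share exon sequence may be assigned to either. Lines of the deposited counts that name no gene (no feature 10.55% to 14.69%, ambiguous 5.53% to 6.62%, low quality 5.17% to 5.85%, not aligned 10.81% to 17.77%, not unique 5.74% to 7.03% of reads) were left out. In macrophages alone 13.41%, 14.01%, 11.88% and 11.38% of reads were not aligned. With control corpses the share was 11.29%, 11.54%, 10.81% and 11.43%, and with STC1OE corpses 14.62%, 14.4%, 17.77% and 17.53%. The part of this difference in the comparisons of groups and of replicate pairs was not tested.

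Symbols were matched by identifier, and positions and exon lengths came from GENCODE M21 (GRCm38). The tests were run with edgeR 4.0.16 (R 4.3.3) on genes kept by filterByExpr (at least 10 counts in enough libraries, 15 in total). Robust quasi-likelihood models with TMM factors and group means were fitted to the 12 libraries together. Tests were two-sided, Benjamini-Hochberg adjustment ran over the 16406 genes tested, and the threshold was 0.05. The standard error is the log2 fold change divided by the root of the F statistic. The common biological coefficient of variation was 4.53%. Steps were tested on simulated data. No 2 libraries agreed within sampling noise (chi-square per degree of freedom 2.73 to 17.1). Replicate numbers did not pair the libraries. The 8 marker lists of cell types were summed. The members and lists were chosen with earlier results of these data known. Values in every library are given for 20 members, namely Rubcn, Cybb, Cyba, Map1lc3b, Sqstm1 and, per role, up to 3 called members with the largest change. The alternatives were other scaling factors (RLE, upper quartile), no low-count filter, DESeq2 1.42.0, fits of the compared groups alone, the replicate number as a block, replicates 1 and 2 or 3 and 4 alone, a 1.2-fold threshold, and leaving out libraries. Because the labels do not tie libraries to animals, p-values measure the spread between these libraries. Of the further genes of the pathway, 1 that the naming rule selects is not reported here.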

Additional observations from a re-analysis of the deposited data

Results flagged for a closer look

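In 5 of 105 groups of 4 libraries, 1 library stood apart from the other 3 beyond Dixon's limit; chance flags about 5% of groups. With control corpses Rb1cc1 was at 45.9 CPM in replicate 2, against 39.3 to 39.8 CPM in the others, Pik3c3 at 32.1 CPM in replicate 4, against 30.99 to 31.04 CPM in the others, and Pik3r4 at 47.3 CPM in replicate 1, against 49.99 to 50.25 CPM. In macrophages alone replicate 1 was high for Atg5, at 36.3 CPM against 34.2 to 34.5 CPM, and for Optn, at 14.4 CPM against 13.6 to 13.7 CPM. Rb1cc1, Pik3c3, Atg5 and Optn kept their calls against macrophages alone with any 1 library left out.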

How the results depend on the processing

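Of 2205 values of members under the alternatives, 2098 kept their side of the threshold, 81 lost a call, 25 gained one and 1 reversed: Atg3 with STC1OE corpses against macrophages alone, at −0.17 in replicates 1 and 2 (not called over all libraries; the cause was not tested). Of the values called neither way, 86 changed sign. RLE factors changed no member's call, and upper-quartile factors added Atg101 with STC1OE corpses. With the replicate block, genes called higher and lower were 20% and 20.9% of the 16406 tested with control corpses, 21.6% and 22.9% with STC1OE corpses, and 4.13% and 2.51% between the corpse groups; of the members it added Atg13 in the first (16 lower) and the last (6 higher). Same-numbered libraries correlated at −0.0434 to 0.0912 over 12 pairs, and 5 of 12 libraries lay closest to their own number. The test against 1.2-fold, which asks for a larger change, left 1 member higher and 3 lower with control corpses (4.49% and 5.80% of all genes), 3 and 1 with STC1OE corpses (5.50% and 7.41%), and 0 members higher between the corpse groups (0.0122% and 0.0122%). Replicates 1 and 2 alone, with fewer libraries, gave 12.2% higher and 12.8% lower with control corpses, 13.7% and 14.6% with STC1OE corpses, and 0.165% and 0.0366% between the corpse groups, with 1 member. Replicates 3 and 4 alone gave 7.91% and 3.82% between the corpse groups, with 9 members; why the pairs differ was not tested. With each library left out in turn, members called higher and lower were 6 to 7 and 12 to 17 with control corpses, 7 to 7 and 10 to 11 with STC1OE corpses, and 3 to 7 and 0 to 0 between the corpse groups. All genes called were then 17.9% to 21.4% and 17.5% to 20.1%, 19.8% to 22.9% and 19.4% to 22.6%, and 1.71% to 4.43% and 0.89% to 2.88%, the lowest without STC1OE replicate 3 or 4 (control replicates 1 and 3 also moved them, to 1.13% lower and to 1.99% and 1.24%). Calls of 18 of 21, 17 of 18 and 3 of 5 members held throughout. Depth limits Atg10, at about 5 CPM.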
